A study of Rattus norvegicus with 252 samples.

Results

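The cerebellum of 6-month-old Long Evans rats was compared between wild type (WT) rats and rats heterozygous for the Q130 knock-in (labelled Q130 KI Het), a rat model of Huntington disease. The libraries were chosen by their titles, which name the tissue, the genotype and the age. They were 20 of the 252 samples of the series, 10 Q130 and 10 WT, with 5 females and 5 males of each genotype. All 20 came from separate animals and from batch 1, and the labels name no other allele and no treatment in either group. The series also holds the striatum, cortex and hippocampus of the same 20 animals, and all 4 tissues of other animals of 2 and 12 months. These are used below only to set the values of the 6-month cerebellum beside them.

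Huntington disease is caused by a lengthened run of CAG codons in the gene for huntingtin, a large scaffold protein, which lengthens its stretch of glutamines. A knock-in places such a repeat in the animal's own gene, so that the altered protein is made wherever that gene is active. The striatum bears the main loss of neurons in patients, and the cerebellum, which coordinates movement through its Purkinje cells and its very numerous granule cells, is known as a region that is less affected. The count table gives Ensembl gene identifiers and no names, and 0 of 32883 identifiers matched a name in the reference used here. The targeted gene could therefore not be checked in the libraries, the 32 lists of marker and pathway genes, which are written as gene symbols, could not be counted, and genes are described by their level, their tissue and their values. By a set rule, 4 genes are given by identifier, the 2 that rose and the 2 that fell with the smallest adjusted p.

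The 20 libraries held 28.3 to 44.0 M (mega) counts (median 34.7) and 17900 to 18471 detected genes. All 20 had a cerebellar profile. The 275 genes that were enriched in the cerebellum of 2-month WT rats averaged 4.38 to 4.56 log2 CPM (counts per M counts) in WT and 4.33 to 4.56 in Q130 cerebellum, against 0.10 to 1.07 in 60 forebrain libraries of 6 months. The 374 forebrain-enriched genes averaged 1.31 to 1.81 log2 CPM in WT and 1.29 to 1.60 in Q130 cerebellum, against 4.77 to 5.30 in the forebrain. The first principal component, with 14.5% of the variance, separated the sexes, at 8.19 to 16.2 in males and -26.0 to -7.08 in females. On the second component, with 12.0%, the libraries Q130 female 5 and WT male 5 lay at -29.9 and -30.3, away from the other 18. The rest of each genotype overlapped, with medians over all 10 libraries of 8.02 in WT and -2.95 in Q130. The difference between these medians was not tested. The median correlation of each of the 20 libraries with the others was 0.980 to 0.987, so none stood apart by the limit of 0.97.

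Depth and composition moved with genotype. Q130 libraries held 38.0 ± 3.92 M counts (SD, n = 10) and WT libraries 33.9 ± 3.65 (SD, n = 10), a two-sided exact permutation p within sex of 0.031 (adjusted p = 0.0464 over 3 measures). The 100 most abundant genes took 21.8 ± 0.66% of the counts in Q130 and 20.8 ± 0.68% in WT libraries (SD, n = 10 each, exact permutation p = 0.00384, adjusted p = 0.0115). The number of detected genes was 18185 ± 99.1 in Q130 and 18076 ± 180 in WT libraries (SD, n = 10 each, exact permutation p = 0.122). The part of these differences in the gene results below was not tested. Animal identifiers have a first part that took 12 values among the 20 animals, and 1 of these occurred in both genotypes. Its meaning is not stated in the labels. Libraries with the same first part had an estimated correlation of 0.0476, and limma-voom called 9 genes both with and without that correlation. All but 1 of the 12 values lay within 1 genotype. A correlation within them therefore cannot separate a difference between these groups from one between genotypes.

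Few cerebellar genes were called as different between the genotypes at 6 months, and most of those called were lower in Q130 rats. Of 15305 genes tested, 44 were called, or 0.287% (edgeR's quasi-likelihood test with sex as a covariate, Benjamini-Hochberg adjusted p under 0.05). Of these, 37 genes were lower in Q130 cerebellum (0.242% of the genes tested) and 7 were higher (0.0457%). The count depended on single libraries, from 4 to 471 with 1 library left out, and on the tool, with 380 calls by DESeq2 and 9 by limma-voom. The changes were small. The median log2 fold change, Q130 over WT, was -0.24 among the lower and 0.25 among the higher genes, the range was -0.74 to 0.43, and 3 called genes differed by more than 1.5-fold. Over all genes tested the median log2 fold change was 0.004, 47.9% were lower, and the median absolute value was 0.06. In bulk tissue, fewer cells of a type and less RNA per cell cannot be told apart.

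**Figure D1:**
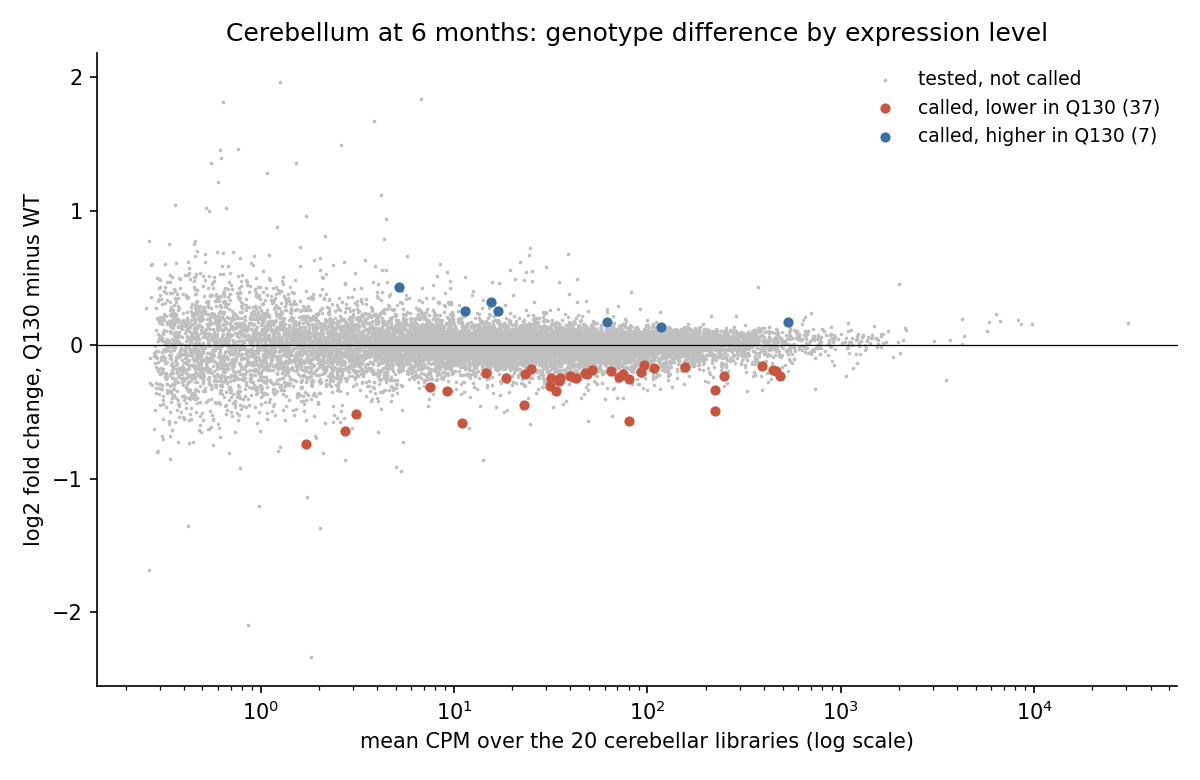
Each point is 1 of 15305 genes, with its mean CPM over the 20 cerebellar libraries on a log axis and its log2 fold change, Q130 minus WT. The 37 genes called lower (red) lie between -0.74 and -0.15 and the 7 called higher (blue) between 0.13 and 0.43, among many genes of equal or larger estimates that were not called.

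The libraries bounded how large an undetected change could be. Among 13790 genes with a mean of at least 1 CPM, 96.2% had a 95% confidence interval inside 1.5-fold in both directions and 72.4% one inside 1.2-fold. Most calls lay at the threshold. Of the 44 called genes, 33 shared the largest adjusted p of 0.0493, 9 were under 0.04, 1 was under 0.01, and the next gene was at 0.0501. At an adjusted p under 0.1 the count was 241, of which 195 were lower and 46 higher, and 2120 genes had an unadjusted p under 0.05, of which 1229 were lower and 891 higher.

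ENSRNOG00000011073 had the smallest adjusted p of all genes. Its level in the 10 WT libraries was 190 CPM at the lowest, 267 at the median and 293 at the highest, and in the 10 Q130 libraries 164, 186 and 202 CPM. The lowest WT value belonged to WT male 5, which lay below 3 of the 10 Q130 libraries. The other 9 WT libraries lay above every Q130 library, at 256 CPM or more. The gene fell from a mean of 260 ± 26.7 CPM to one of 185 ± 11.6 CPM (SD, n = 10 per genotype). That is -0.49 ± 0.06 on the log2 scale (SE), with an edgeR adjusted p of 7.13e-05. It was called without each of the 20 libraries in turn, with an adjusted p of at most 3.58e-04.

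ENSRNOG00000029280 showed no overlap between the genotypes. It had 49.1 CPM at the lowest, 50.3 at the median and 57.4 at the highest in WT, and 41.7, 43.8 and 46.6 CPM in Q130 libraries. Every WT library was above every Q130 library. The gene fell from a mean of 51.3 ± 2.61 CPM to one of 44.3 ± 1.55 CPM (SD, n = 10 per genotype). The log2 difference was -0.21 ± 0.03 (SE), with an edgeR adjusted p of 0.0101. It stayed called without each library in turn, with an adjusted p of at most 0.0340. Of all genes tested 4 had genotypes that did not overlap (0.0261%), 3 of them called, all lower.

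The higher genes with the smallest adjusted p overlapped slightly between genotypes. ENSRNOG00000007690 had 13.8 CPM at the lowest, 15.3 at the median and 16.6 at the highest in WT libraries, and 16.0, 18.6 and 20.4 CPM in Q130 libraries. It rose from a mean of 15.4 ± 0.97 CPM to one of 18.3 ± 1.34 CPM (SD, n = 10 per genotype), which is 0.25 ± 0.05 on the log2 scale (SE), with an edgeR adjusted p of 0.0465. ENSRNOG00000005700 had 476, 496 and 540 CPM at the lowest, median and highest in WT and 528, 562 and 626 CPM in Q130 libraries. It rose from a mean of 501 ± 23.0 CPM to one of 564 ± 29.5 CPM (SD, n = 10 per genotype), which is 0.17 ± 0.04 on the log2 scale (SE), with an edgeR adjusted p of 0.0493. For both, the highest WT library was WT male 5, and the highest Q130 library was Q130 female 3. Both calls lay near the threshold. Leaving out single libraries kept the first in 7 and the second in 4 of 20 fits, with adjusted p up to 0.115 for each. The direction held in all of them, which is no separate evidence, as these fits share nearly all libraries.

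**Figure D2:**
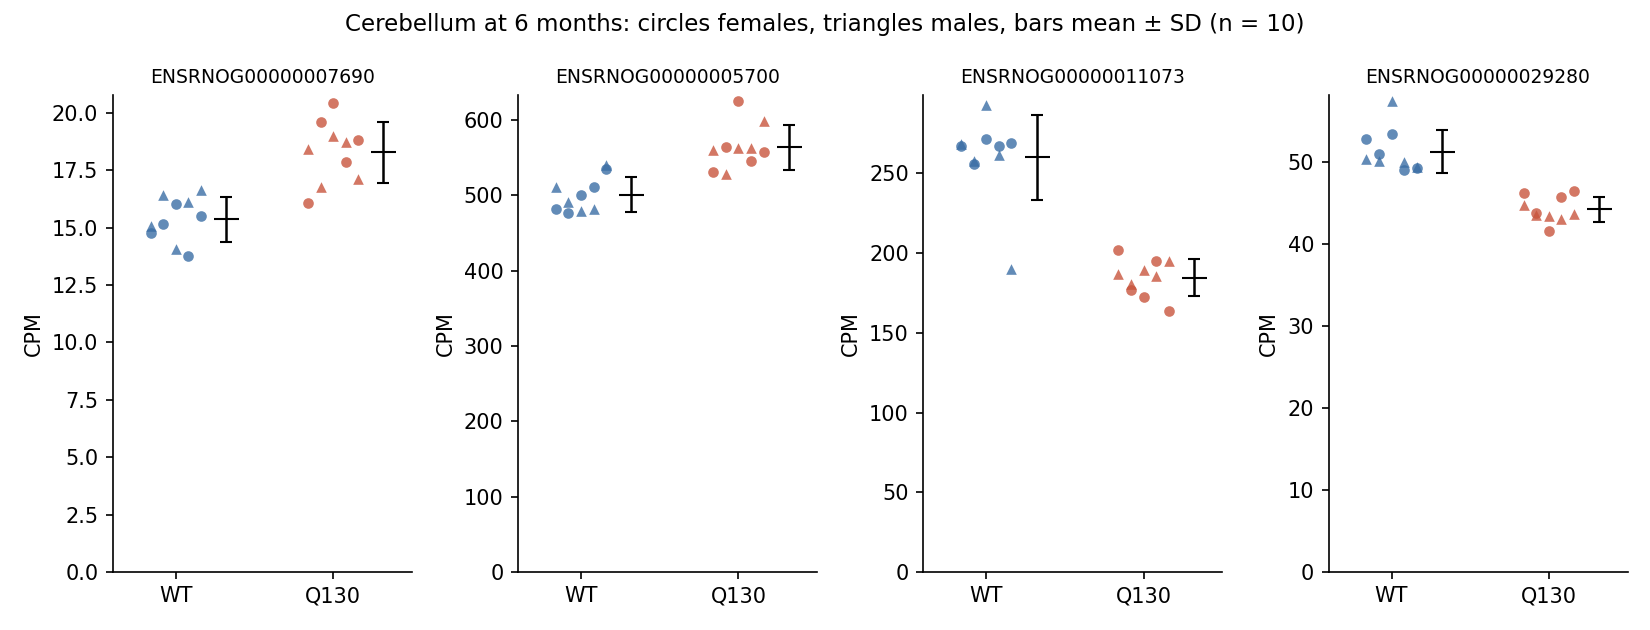
Each point is 1 library, with the CPM of the gene on an axis that starts at 0, females as circles and males as triangles, and the bars give the mean ± SD of 10 libraries. The WT library at 190 CPM in the panel of ENSRNOG00000011073 is WT male 5, and in the panel of ENSRNOG00000029280 the genotypes do not overlap.

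On the scale of TPM (a level per length), the 4 genes differed widely. ENSRNOG00000005700 averaged 661 TPM over the 20 libraries, ENSRNOG00000029280 47.2, ENSRNOG00000011073 33.8 and ENSRNOG00000007690 8.71. These levels lay at percentiles 99.0, 74.2, 65.4 and 33.7 of the genes tested. The relative effective length, the count per unit of TPM set to 1 for the median gene, was 5.82 for ENSRNOG00000011073, 1.73 for ENSRNOG00000007690, 0.90 for ENSRNOG00000029280 and 0.72 for ENSRNOG00000005700.

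The called genes covered a wide range of levels, from percentile 5.80 to 99.0 of the TPM of all genes tested, and 15 of the 44 were below the median gene. Their level had a median of 33.4 TPM, against 19.2 TPM over all genes tested, and their counts a median of 45.3 CPM (1.71 to 532), which sets the precision. None had under 1 CPM. Of the genes with 1 to 10 CPM 0.154% were called, of those with 10 to 100 CPM 0.352% and of those with over 100 CPM 0.492%. The median SE of the log2 fold change fell from 0.11 to 0.05 and 0.04 over these classes. Of the 44 genes 26 were longer than the median gene tested, with a median relative length of 1.13.

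Genes typical of the cerebellum were among the lower ones. Of the 37 lower genes 5 belonged to the 275 cerebellum-enriched genes (13.5%, against 1.80% of all genes tested), and of the 7 higher genes 0 did. The log2 fold changes of these 5 ran from -0.52 to -0.16 and their means from 3.11 to 463 CPM. In 36 other fits, with other tools, settings or libraries, these 5 were called 33, 25, 10, 10 and 8 times. The median log2 fold change of the whole group was -0.01, against 0.004 over all genes tested. Of the 275 genes 144 had a lower estimate, while 47.9% of all genes tested did. At an unadjusted p under 0.05, 42 of the 275 were lower and 25 higher, against 1229 and 891 of the 15305 genes tested. Of 305 forebrain-enriched genes measured in the cerebellum 0 were called, 172 had a lower estimate, and the median was -0.02. At an unadjusted p under 0.05, 24 of the 305 were lower and 11 higher.

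The values of the 44 genes in single libraries describe genes chosen on these same 20 libraries, by a test that favours low spread and separated genotypes. Their median coefficient of variation was 7.63% in WT and 7.50% in Q130 libraries, against 8.58% and 8.91% over all genes with at least 1 CPM. In 36 of the 37 lower genes all 10 Q130 libraries lay below the WT median, and in the remaining one 9 did, while 3.87% of all genes tested had all 10 below. In 6 of the 7 higher genes all 10 Q130 libraries lay above it, and in the remaining one 8 did, while 2.25% of all genes tested had all 10 above. The libraries did not contribute evenly. WT male 5 was the WT library nearest to the Q130 levels in 20 of the 44 genes and past the Q130 median in 6. Q130 female 1 was the Q130 library nearest to the WT levels in 18. WT male 5 also had the highest share of the 100 most abundant genes among WT libraries. That share was 22.1%, inside the Q130 range of 21.0 to 23.4%, while Q130 female 1, at 21.7%, lay near the Q130 median of 21.6%. Whether this share bears on the gene values was not tested.

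Both sexes showed the same directions. All 44 genes had the same direction in females and in males, but the libraries of both sexes had entered their choice. Of all 15305 genes tested, 12442 had the direction of the joint comparison in females and 11871 in males. Their median log2 fold change was -0.25 in females and -0.23 in males for the lower genes, and 0.18 and 0.20 for the higher genes. The difference between the sexes was called for 0 of 15305 genes by edgeR's test and 0 by limma-voom. By edgeR 740 had an unadjusted p under 0.05, and the smallest adjusted p was 0.564. None of the 44 genes had an unadjusted p under 0.05 for that difference. In the same fit ENSRNOG00000011073 was at -0.55 ± 0.08 in females (SE, edgeR adjusted p = 0.0060) and at -0.44 ± 0.08 in males (SE, edgeR adjusted p = 0.147), with a difference of 0.11 ± 0.11 (SE, edgeR adjusted p = 0.974). In fits on 10 libraries of 1 sex, 6 genes were called in females and 2 in males.

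The cerebellum of other rats aged 12 months, all of batch 2, gave the same directions for most of these genes. In these rats each first part of the animal identifiers belonged to a single genotype. Of the 37 lower genes 34 were lower at 12 months (91.9%, against 50.6% of all genes tested), with a median log2 fold change of -0.13. An unadjusted p under 0.05 with a lower estimate was found for 18 of them (48.6%, against 9.05% of all genes), and 9 were called lower (24.3% of the 37 and 8.41% of the 107 called lower at 12 months, where 0.705% of the genes tested were called lower). Of the 7 higher genes 6 were higher at 12 months (median log2 fold change 0.11) and 2 of them were called higher (28.6% of the 7 and 1.53% of the 131 called higher, 0.863% of the genes tested). The share of all genes tested with the same direction at 6 and 12 months was 61.9%. The lower genes varied together between the 6-month animals, with a median correlation of 0.42, so their directions are not independent. The 9 genes called lower at both ages had log2 fold changes of -0.74 to -0.16 at 6 months and of -0.83 to -0.14 at 12 months. They held 4 of the 5 cerebellum-enriched genes, and all 5 of those had lower estimates at 12 months with an unadjusted p under 0.05 and a median of -0.35.

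The cerebellum of other rats aged 2 months, also of batch 1, gave different values. By edgeR's test 0 of 15349 genes were called there, while 244 had an unadjusted p under 0.05. By limma-voom 0 were called. Of the 37 lower genes 7 were lower and 30 higher at 2 months (median log2 fold change 0.07), against 49.6% lower among all genes. Of the 7 higher genes 2 were higher. The cerebellar libraries Q130 male 1 and Q130 male 2 of 2 months stood apart, with median correlations of 0.947 and 0.937. Without them 15 of the 37 genes were lower and 22 higher, with a median of 0.02, against 51.2% lower among all genes. Of the 7 higher genes 3 were then higher. Of the 15435 genes then tested edgeR called 2, 1 of them among the 44, and 1324 had an unadjusted p under 0.05.

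**Figure D3:**
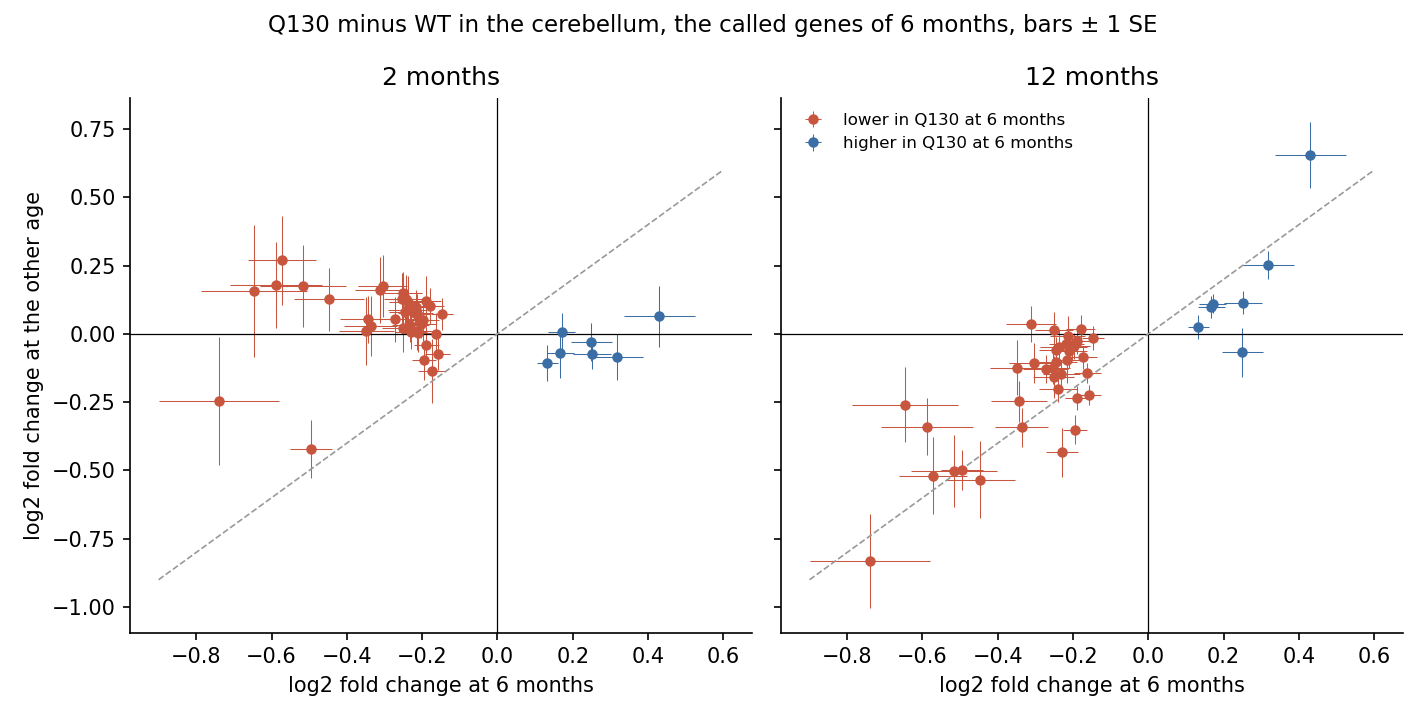
Each point is 1 of the 44 genes called at 6 months, with its log2 fold change at 6 months on the horizontal axis and at 2 months (left) or 12 months (right) on the vertical axis, bars of ± 1 SE and a dashed line of equal values. At 12 months 34 of the 37 lower genes (red) lie below 0, and at 2 months 7 of them do. The 2-month values include the 2 libraries that stood apart, and without those 15 of the 37 were lower.

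The change of the genotype effect between ages was tested over all 60 cerebellar libraries. For 6 against 2 months edgeR and limma-voom each called 0 of 15866 genes. By edgeR 1735 had an unadjusted p under 0.05, and the smallest adjusted p was 0.0893. Of the 44 genes 39 had an unadjusted p under 0.05, but they had been chosen on the 6-month libraries of this test. The smallest adjusted p was shared by 2 of the 44, a gene lower at 6 months with a difference of -0.30 ± 0.06 (SE) and ENSRNOG00000007690 with one of 0.32 ± 0.07 (SE). ENSRNOG00000007690 was called with a filter of at least 1 CPM (edgeR adjusted p = 0.0478) and without the libraries that stood apart (edgeR adjusted p = 0.0240). For 12 against 6 months edgeR and limma-voom called 0 genes, with 659 at an unadjusted p under 0.05 by edgeR, 11 of them among the 44. Age and batch changed together between 6 and 12 months. Between 2 and 6 months the overlap of identifier groups between the genotypes changed with age.

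The named genes followed different courses. ENSRNOG00000011073 was lower at each age, at 177 ± 34.7 against 237 ± 17.3 CPM in WT at 2 months and at 172 ± 19.99 against 243 ± 27.7 CPM at 12 months (SD, n = 10 each). Its log2 fold change at 2 months was -0.42 ± 0.11 (SE, edgeR adjusted p = 0.973), and -0.33 ± 0.04 (SE, edgeR adjusted p = 4.48e-04) without the 2 libraries that stood apart. At 12 months it was -0.50 ± 0.07 (SE, edgeR adjusted p = 0.0048). ENSRNOG00000029280 was at 0.07 ± 0.07 at 2 months (SE, edgeR adjusted p = 0.973), at -0.02 ± 0.05 without those 2 libraries (SE, edgeR adjusted p = 0.913), and at -0.04 ± 0.05 at 12 months (SE, edgeR adjusted p = 0.733). ENSRNOG00000007690 was at -0.07 ± 0.06 and 0.11 ± 0.04 (SE, edgeR adjusted p = 0.973 and 0.147), and ENSRNOG00000005700 at 0.01 ± 0.07 and 0.11 ± 0.04 (SE, edgeR adjusted p = 0.992 and 0.103). Without those 2 libraries of 2 months these genes were at -0.07 ± 0.04 and -0.002 ± 0.04 (SE, edgeR adjusted p = 0.657 and 0.994).

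In the 3 forebrain tissues of the same 20 animals the direction of the lower genes differed by tissue. More of them were lower than higher in striatum and hippocampus, and more were higher in cortex. Of the 37, 36 were measured in each forebrain tissue, and edgeR called 0 genes between the genotypes in each of these tissues. A lower estimate was found for 22 of the 36 in striatum, 11 in cortex and 24 in hippocampus, with medians of -0.03, 0.09 and -0.03. Over all genes measured in both, 46.6, 48.8 and 48.2% were lower, and 53.5, 39.4 and 56.2% had the same direction as in the cerebellum. Of the 7 higher genes 5, 5 and 6 were higher. Of the 60 forebrain libraries 4 stood apart, 3 of them Q130, and without them 27, 7 and 28 of the 36 were lower and 7, 5 and 6 of the 7 were higher. For 6 of the 20 striatal animals a first and a repeat library share a label, and the column taken as the first was chosen by how its name is spelled.

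**Figure D4:**
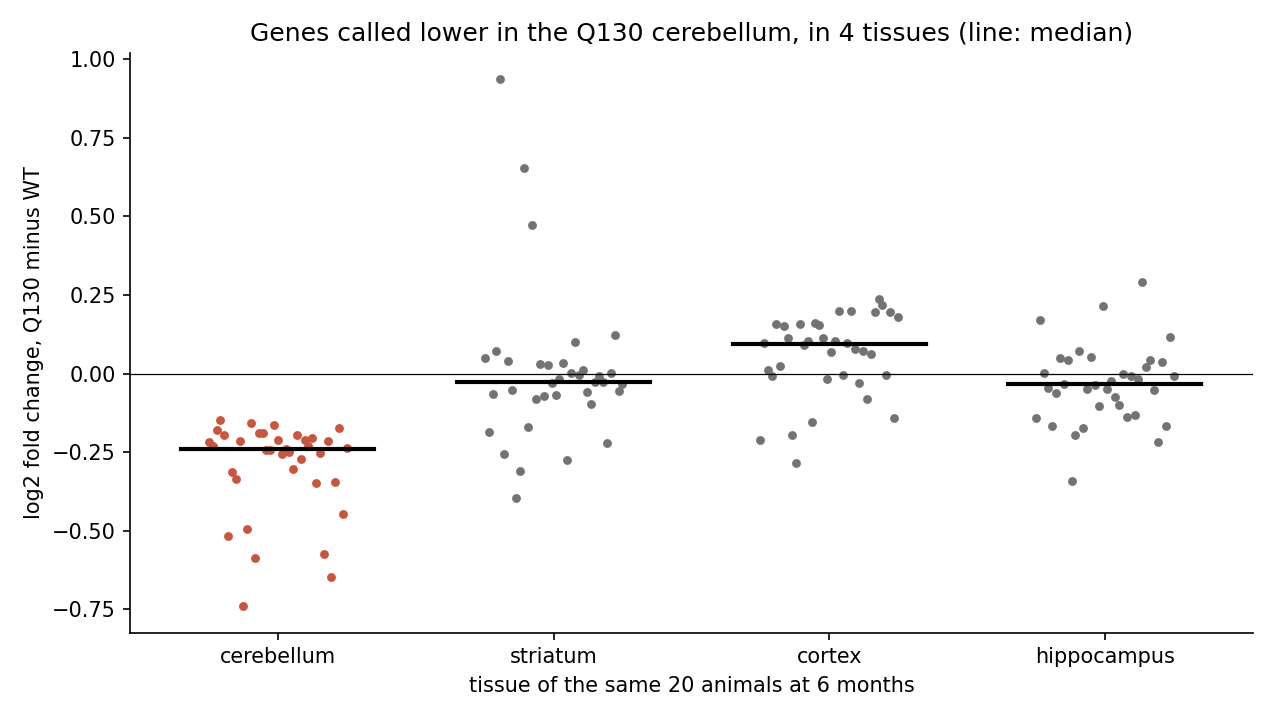
Each point is 1 of the 37 genes called lower in the cerebellum, with its log2 fold change, Q130 minus WT, in 4 tissues of the same 20 animals (36 genes in each forebrain tissue), and the line is the median. The medians are -0.24 in cerebellum, -0.03 in striatum, 0.09 in cortex and -0.03 in hippocampus.

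The difference between the cerebellar effect and the mean of the 3 forebrain effects was tested with the animal as a block. It was called for 40 of 16635 genes, 38 of them lower and 2 higher in the cerebellum of Q130 rats relative to the forebrain. Of the 44 genes 8 were among them, all lower, with differences of -0.64 to -0.23, and 1 of these was cerebellum-enriched. Their choice on the cerebellar libraries favours such a difference. ENSRNOG00000029280 was 1 of the 8, with a difference of -0.23 ± 0.05 (SE, edgeR adjusted p = 0.0288). Its own effects were -0.005 ± 0.04 in striatum, 0.08 ± 0.05 in cortex and -0.008 ± 0.05 in hippocampus (SE). Without the 4 forebrain libraries that stood apart the count rose to 516, 393 lower and 123 higher, and 28 of the 44 were called.

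ENSRNOG00000011073 was lower in the forebrain too, by estimates of -0.31 ± 0.06 in striatum, -0.28 ± 0.13 in cortex and -0.34 ± 0.10 in hippocampus (SE, edgeR adjusted p = 0.390, 0.708 and 0.989). Without the libraries that stood apart it was called in striatum, at -0.36 ± 0.04, and in cortex, at -0.38 ± 0.05 (SE, edgeR adjusted p = 3.42e-05 and 3.46e-04). In hippocampus it was at -0.23 ± 0.05 (SE, edgeR adjusted p = 0.843). Its cerebellar effect minus the forebrain mean was -0.18 ± 0.10 (SE, edgeR adjusted p = 0.688), and -0.18 ± 0.05 without those libraries (SE, edgeR adjusted p = 0.0326). ENSRNOG00000005700 was at 0.09 ± 0.05 in striatum, -0.02 ± 0.06 in cortex and 0.19 ± 0.05 in hippocampus (SE, edgeR adjusted p = 0.985, 0.944 and 0.989). Without the libraries that stood apart its cortex value changed sign, and the 3 values were 0.10 ± 0.05, 0.05 ± 0.03 and 0.13 ± 0.03 (SE, edgeR adjusted p = 0.872, 0.646 and 0.843).

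Single libraries set how many genes were called. Without WT male 5 edgeR called 471 genes, 366 lower and 105 higher, and all 44 were among them. All 471 had the same direction with the 20 libraries, and 455 an unadjusted p under 0.05 there. Without Q130 female 1 it called 191 genes and without WT female 5 89, with 44 and 40 of the 44 among them. Without Q130 female 4 it called 32 genes. Each of the other 16 libraries, left out alone, lowered the count to between 4 and 18. All 44 genes kept their direction in each of these 20 fits, 4 were called in all 20 and 9 in at least 10. These fits share nearly all libraries with the main fit, so kept directions are no separate evidence.

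**Figure D5:**
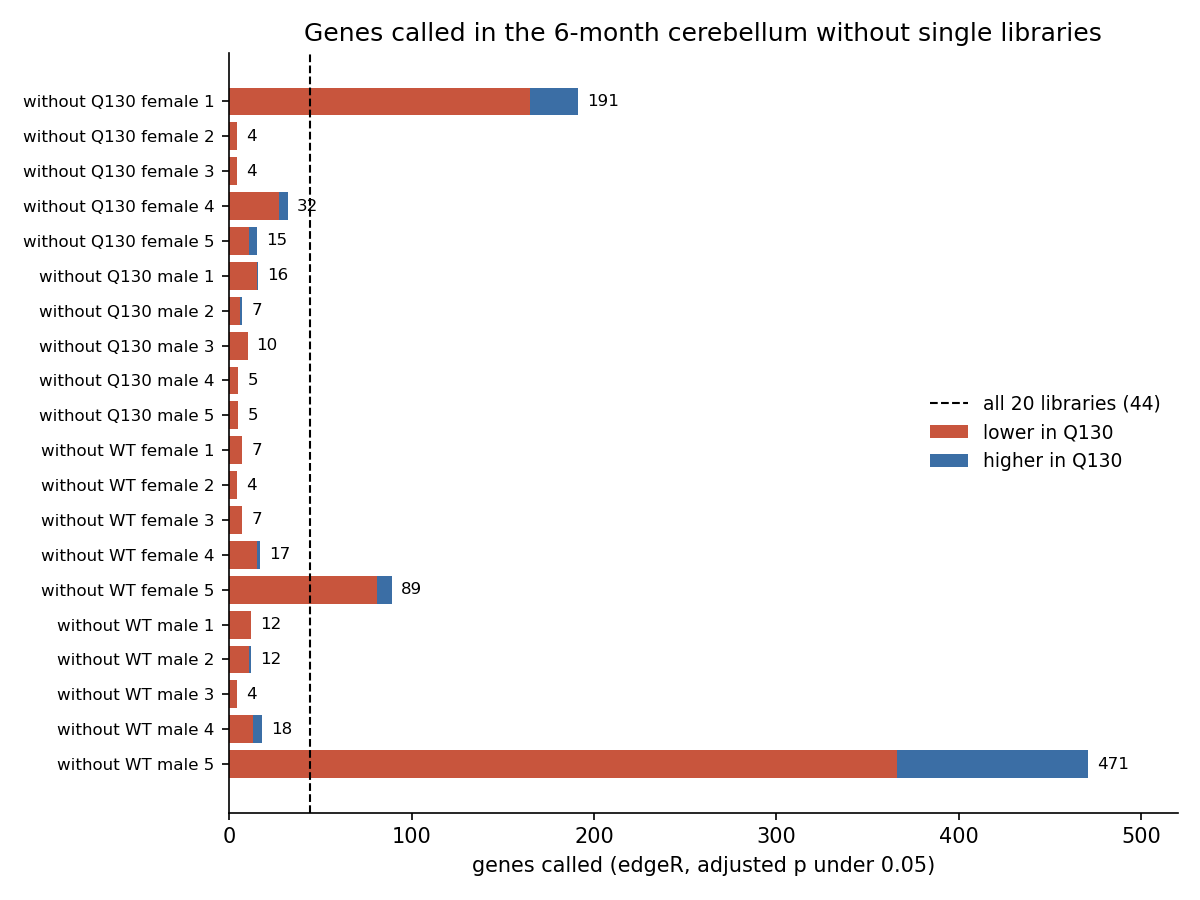
Each bar is the number of genes called by edgeR's test at an adjusted p under 0.05 with the named library left out, split into genes lower (red) and higher (blue) in Q130 rats, and the dashed line marks the 44 calls with all 20 libraries. The count is 471 without WT male 5, 191 without Q130 female 1, 89 without WT female 5 and 32 or fewer without any other single library.

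The rat of the cerebellar library WT male 5 also gave a cortex library that stood apart, with a median correlation of 0.918 with the other cortex libraries. Replicate numbers are given within each tissue, and its cortex library is WT male 4. In that library ENSRNOG00000011073 was at 69.9 CPM, against 164 to 209 in the other WT cortex libraries and 129 to 160 in Q130 cortex. In the striatum and hippocampus of the same rat the gene was at 134 and 185 CPM, inside the range of the other WT libraries (127 to 153 and 152 to 218 CPM).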

How the data were processed

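The labels' protocols describe flash-frozen tissue, Qiagen kit extraction, a Bioanalyzer check and Illumina sequencing of enriched RNA subfractions, from no less than 3.75 ug of total RNA. For aligner, counter and genome build the entry is: not given in the sources used here. Estimated counts (expected counts) of 32883 genes were deposited by the authors. Of these values 8.20% are not whole, and they were rounded. The table of the authors named FPKM sums to the same total in every column, so its deposited values are on the TPM scale and served only for levels per length and relative lengths. Of the per-sample count columns 12, repeat striatal libraries, were not used.

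Main fits used edgeR 4.0.16 in R 4.3.3 (filterByExpr, TMM, robust quasi-likelihood, sex as covariate), alternatives limma 3.58.1 and DESeq2 1.42.0. SE is the size of the log2 fold change over the square root of F, and CPM uses TMM library sizes. Tissue-enriched genes had a mean log2 CPM (prior count 2) over 0 and at least 2 above each tissue of the other kind in WT rats of 2 months. Libraries stood apart at a median correlation under 0.97 with those of their tissue. Library measures were compared over every reassignment of genotype within sex (exact permutation). Genes were named by rule: with no symbols, the 2 called identifiers that rose and the 2 that fell with the smallest adjusted p, ties by p. No pair of libraries of a group agreed to within counting noise (squared differences at least 3.33 times that of noise). The scripts were tested on simulated data. The comparison, gene groups and lists were chosen with earlier results of these data known.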

Additional observations from a re-analysis of the deposited data

Results flagged for a closer look

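Among 62 groups of 10 libraries examined, 14 held a value far from the rest. About 1 in 20 groups does so by chance, and several of these values come from the same libraries and are not independent.

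Q130 female 5 had the lowest mean of cerebellum-enriched genes in Q130 cerebellum, at 4.47 log2 CPM (scaled among the 20 libraries) against 4.58 to 4.68 in the other 9, and the lowest median correlation, at 0.980 against 0.984 to 0.987. WT male 5 lay at -30.3 on the second component, against -5.66 to 19.5 in the other WT libraries. ENSRNOG00000011073 was at 190 CPM in WT male 5, against 256 to 293 in the other WT libraries. ENSRNOG00000029280 was at 57.4 CPM in the cerebellum of WT male 3, against 49.1 to 53.5.

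ENSRNOG00000011073 was also far from its group at 81.5 CPM in the 2-month cerebellar library Q130 male 2, which stood apart, against 176 to 203 in the others. It was at 177 CPM in the 12-month cerebellum of WT female 1 against 227 to 279, at 146 CPM in the 6-month striatum of Q130 male 1 against 104 to 115, at 69.9 CPM in the cortex of WT male 4 against 164 to 209, and at 152 CPM in the hippocampus of WT male 3 against 185 to 218. The striatal library and the cortical one stood apart from their tissues. ENSRNOG00000005700 was at 264 CPM in the same cortex library against 162 to 189, and at 192 CPM in the hippocampus of WT male 3 against 165 to 178. ENSRNOG00000007690 was at 24.4 CPM in the hippocampus of WT male 1 against 20.8 to 22.3, and ENSRNOG00000029280 at 57.3 CPM in the hippocampus of Q130 male 3, which stood apart, against 40.9 to 47.9.

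The genotype effect in the cerebellum differed from that of the forebrain in 8 of the 44 called genes, among them ENSRNOG00000029280 with a difference of -0.23 on the log2 scale.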

How the results depend on the processing

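The direction of all 44 genes held in 36 other fits. All of these fits used libraries on which the genes were chosen, so this is no separate evidence. The number of genes called did not hold. It was 380 with DESeq2 and 284 with limma-voom and library quality weights, 9 with limma-voom (also with the correlation of animals that share the first part of the identifier, estimated at 0.0476), 12 with RLE and 11 with upper quartile normalization, 138 without TMM factors, 10 with no filter on low counts, 11 without sex, 3 in 1 fit over the 60 cerebellar libraries, 6 in females and 2 in males. At adjusted p under 0.01 and 0.1 it was 1 and 241, and without Q130 female 5 and WT male 5 together 398. Leaving out single libraries gave 4 to 471. With 33 genes at an adjusted p of 0.0493, small shifts move many calls, and the cause of each shift was not tested. Thresholds, the pair left out and the fit without TMM factors were chosen after seeing the data. With the replicate number as a block the count was 18, of which 12 were among the 44. The numbers share no stated animal or litter, and same-numbered libraries correlated at -0.01 to 0.20 (3 of 10 pairs over 0.1), so they do not pair the animals. The count for 6 against 2 months went from 0 to 2 with a filter of at least 1 CPM and to 2 without the libraries that stood apart, the 2-month count from 0 to 2, and that for cerebellum against forebrain from 40 to 516. Of 36 other fits, ENSRNOG00000011073 was called in 35, ENSRNOG00000029280 in 33, ENSRNOG00000007690 in 17 and ENSRNOG00000005700 in 11. The fit in which the first was not called held males only (adjusted p = 0.228, edgeR). Genes under 1 CPM had a median SE of 0.21, which limits what could be seen there.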

Other observations

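The lower genes varied together between animals within a genotype. After sex and genotype were taken out of the log2 CPM values, the median correlation over 666 pairs of the 37 lower genes was 0.42, with 93.1% of pairs above 0, against -0.003 between these genes and the other tested genes. Over 21 pairs of the 7 higher genes it was 0.09. These are descriptions over the same 20 libraries in which the genes were chosen, and the pairs share their libraries. The other tested genes were not chosen for a shared direction, so they are no matched comparison for the 37.

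In the comparison of the sexes, which is no part of the genotype result, 52 genes were called in the 6-month cerebellum, and 8 of them differed more than 32-fold with no overlap between males and females. These 8 genes separated all 20 libraries by the labelled sex.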
